A study of Mus musculus with 10 samples.

Results

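Arg1, Mrc1, Chil3, Retnla, Il10 and Tgfb1, transcripts used to describe alternatively activated or N2-type myeloid cells, were followed across 10 RNA-seq libraries of mouse Ly6G+ cells, with Nos2 as the opposing, classical marker. The genes and the lists of genes used below were chosen by name, with earlier results of these data known. All 7 genes were found among the 28185 genes of the table. The cells were enriched with anti-Ly6G magnetic beads from C57Bl/6J males aged 12 to 16 weeks whose left coronary artery had been tied 3 days earlier, and the source was either the left ventricle below the ligature or blood. The 4 groups were MI (heart, no MSC, n = 3 libraries), MI + MSC (heart, MSC, n = 3), Blood (no MSC, n = 2) and Blood + MSC (n = 2), so every group carried an infarct and no group came from sham-operated mice. MSC are mesenchymal stromal cells, here syngeneic bone marrow cells of males aged 6 to 8 weeks at passage 6 to 9, given subcutaneously as 3 depots of 1000000 cells, 30 to 60 minutes after ligation. Whether mice without MSC received a vehicle, and which heart and blood libraries shared a mouse, is not given in the sources used here. The batch label of each library repeats its group, so batch and group cannot be told apart. The methods of the study take the single animal as the unit of its mouse experiments, while the labels tie no library to a mouse, and p-values measure the spread between these libraries.

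Alternative activation is the state that macrophages take up under interleukin-4 and interleukin-13, which act through the transcription factor STAT6. Arg1 encodes arginase 1, which splits arginine into ornithine and urea, while Nos2 encodes the inducible nitric oxide synthase, which uses the same amino acid. Mrc1 is the mannose receptor CD206, Chil3 (Ym1) a chitinase-like secreted protein, and Retnla (Fizz1, RELM-alpha) a small secreted protein. Il10 and Tgfb1 encode cytokines that restrain inflammation and, for Tgfb1, drive scar formation. In neutrophils the same genes have been borrowed as marks of an N2 state, as opposed to a pro-inflammatory N1 state.

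Reads on genes ran from 148594 to 8602711 per library, a 57.9-fold range. Values are normalized counts, that is, reads divided by the size factor of the library, and 1 read stood for 8.40 of them in the library MI 13, for 7.07 in Blood 21 and for 0.168 to 2.30 elsewhere. A low value in MI 13 or Blood 21 therefore rests on very few reads, and the reads are given beside such values. Of the 7 genes, 6 reached the mean of 10 normalized counts needed for testing, and were tested among 11549 genes, and Nos2 did not, at a mean of 9.46. A gene was called where the Benjamini-Hochberg adjusted p-value was under 0.05 and the log2 fold change was 0.5 or more in size, on the log2(normalized count + 2) scale, on which changes of low genes come out too small.

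The labelled cell type was checked first. All 15 neutrophil markers were present in the table, and Ly6g itself, the target of the beads, ranged from 4.75 to 26.9 normalized counts in the heart and from 41.2 to 645 in blood. Summed neutrophil markers, which include S100a9 and Retnlg, ran from 2874 to 8968 (MI) and 3196 to 15523 (MI + MSC) in the heart, and from 48073 to 59256 (Blood) and 18082 to 26269 (Blood + MSC) outside it. Monocyte and macrophage markers (17 of 17 in the table) were abundant in all groups, with sums of 6026 to 16986, 12963 to 21384, 15486 to 23471 and 12104 to 13519 in the same order, and none of the 17 was without reads in a whole group. Of these, C1qa, a complement gene of tissue macrophages, ranged from 336 to 2438 normalized counts, Csf1r, the receptor for the macrophage growth factor, from 387 to 1163, and Adgre1, which encodes F4/80, from 118 to 627. Heart muscle markers summed to 3138 to 24250 in the heart libraries and 14.3 to 63.6 in blood. Platelet markers summed to 25337 in Blood 21, 1077 in Blood 22 and 454 to 1750 in the other libraries, so the Blood libraries differed in this respect. The values below are thus levels in mixed material, and in bulk libraries fewer cells of a type and less RNA per cell cannot be told apart.

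**Figure D1:**
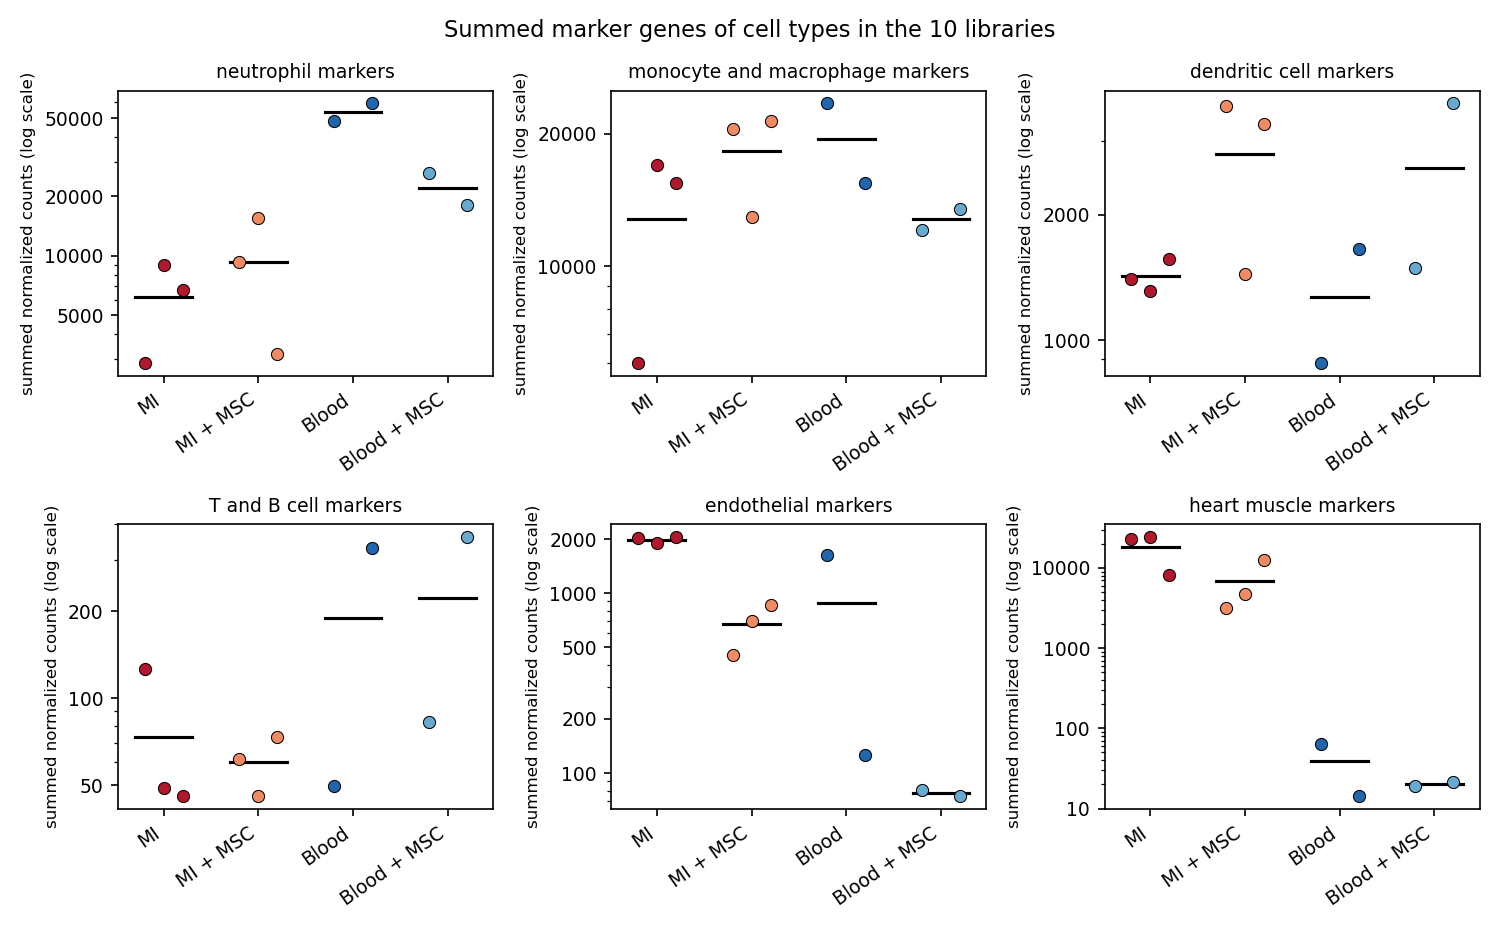
Summed normalized counts (log scale) of 6 cell type marker lists, 1 point per library in the 4 groups, with black lines at the group means. Neutrophil markers sat at 2874 to 15523 in the heart and 18082 to 59256 in blood, monocyte and macrophage markers at 6026 to 23471 in all libraries, and heart muscle markers at 3138 or more in the heart against 63.6 or less in blood.

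Arg1 (chr10:24791118-24803817, minus strand, GRCm39) was a well expressed gene, ranked 304 of 28185 by mean level. Its normalized counts were 294, 385 and 692 in MI 13, 19 and 20, and 916, 783 and 883 in MI + MSC 15, 17 and 18. Blood 21 and 22 held 586 and 552, and Blood + MSC 23 and 24 held 516 and 1143. All MI + MSC libraries lay above all MI libraries, as held for 7.05% of all genes tested. The blood groups overlapped, with Blood + MSC 24 holding the highest value of the series. Mean levels were 457 ± 209 in MI and 860.5 ± 69.2 in MI + MSC (SD, n = 3 each), a ratio of 1.88. The fitted log2 fold change of MI + MSC over MI was 1.0 (SE 0.38, 95% interval 0.16 to 1.84), with an unadjusted p = 0.0239 and an adjusted p = 0.602 by limma, so Arg1 was not called. MI 13, which supplied 35 of the 1781 Arg1 reads of its group, lowered the MI mean, and without it the log2 fold change was 0.73. In the same comparison the summed endothelial markers did not overlap (1893 to 2054 in MI, 456 to 859.6 in MI + MSC). Heart muscle markers ran from 8095 to 24250 in MI and from 3138 to 12602 in MI + MSC. All 9 endothelial and all 8 heart muscle markers tested had lower values with MSC (median log2 fold change -1.60 and -1.43). Of these, 8 and 7 had an unadjusted limma p under 0.05, as did 925 of all 11549 genes tested. Neither these markers nor any other gene tested was called, and their part in the Arg1 difference was not tested. In blood the log2 fold change with MSC was 0.43 (95% interval -0.60 to 1.46, adjusted p = 0.868). Arg1 in heart and blood differed by -0.41 without MSC (SE 0.43, adjusted p = 0.481) and 0.16 with MSC (SE 0.43, adjusted p = 0.834), and library size scaling turned the first of these to 0.11 and TMM scaling the second to -0.46.

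**Figure D2:**
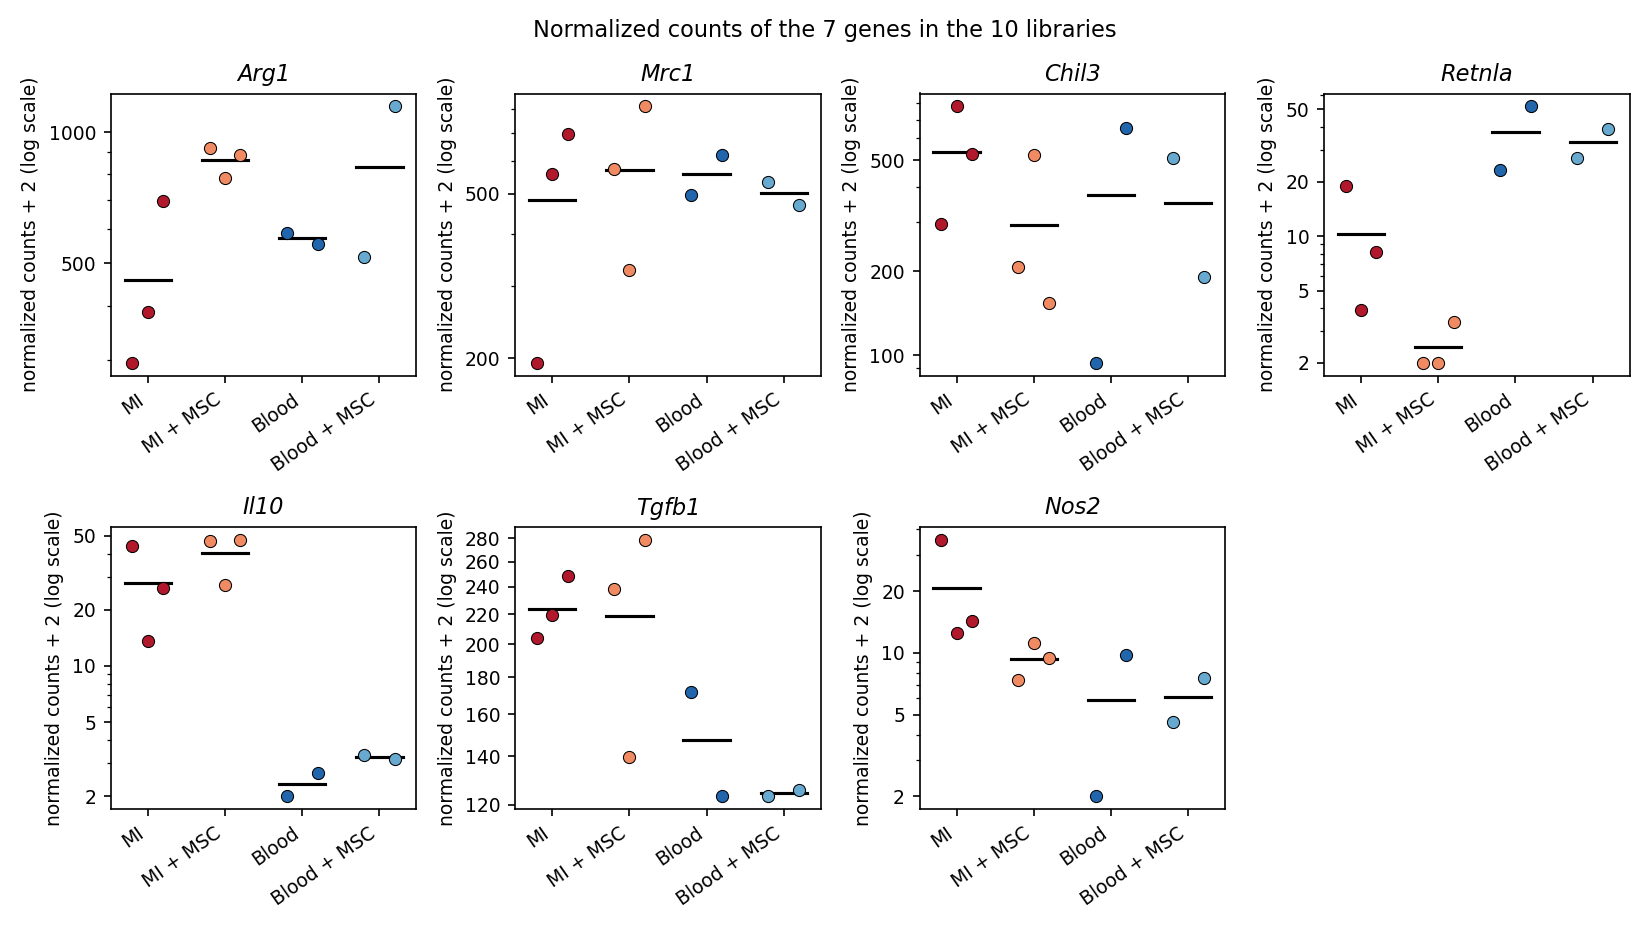
Normalized counts + 2 (log scale) of the 7 genes, 1 point per library in the 4 groups, with black lines at the group means. Arg1 lay at 783 to 916 normalized counts in MI + MSC and at 294 to 692 in MI, Il10 at 11.5 to 45.4 in the heart and 0 to 1.31 in blood, and Retnla at 0 to 16.8 in the heart and 21.2 to 50.03 in blood.

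Nos2 (chr11:78811613-78851080, plus strand), the opposing marker, was near the limit of detection throughout. The MI libraries held 4, 11 and 24 reads, MI + MSC 8, 4 and 11, Blood 0 and 12, and Blood + MSC 10 and 33, in library order. As normalized counts, MI held 33.6, 10.6 and 12.4 and MI + MSC 5.41, 9.18 and 7.46, whereas the blood libraries held 0, 7.80, 2.63 and 5.55. The 0 of Blood 21 allows up to 21.2 normalized counts, so this library cannot place Nos2. MI libraries were all higher than MI + MSC libraries, as held for 9.6% of all genes tested, and 33.6 in MI 13 stands for 4 reads. The pooled reads gave a ratio of 0.540 for MI + MSC over MI (95% counting interval 0.308 to 0.926). This interval covers counting error alone. In the limma fit without the filter the log2 fold change was -1.01 (SE 0.70, unadjusted p = 0.164, adjusted p = 0.747), which was not called. In the 2 comparisons of heart with blood, the groups did not overlap without MSC, as held for 55.2% of all genes tested, and overlapped with MSC. Over all 6 heart and 4 blood libraries the mean log2(normalized count + 2) was 3.71 and 2.35, a difference of 1.36 (two-sided exact permutation test, p = 0.0476, smallest possible p = 0.00952). With TMM scaling the difference was 0.95 (exact permutation p = 0.114), without Blood 21 it was 0.90 (p = 0.119, exact), and without MI 13 and Blood 21, an omission chosen after the data were seen, it was 0.62 (p = 0.179, exact).

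Set side by side within each library, Arg1 reads outnumbered Nos2 reads everywhere. Arg1 made up 89.7% of the Arg1 and Nos2 reads in MI 13 (35 of 39, 95% Wilson interval 76.4 to 95.9), 97.3% and 98.2% in MI 19 and 20, and 99.4%, 98.8% and 99.2% in MI + MSC 15, 17 and 18. In blood the share was 100% (83 of 83, Wilson interval 95.6 to 100), 98.6%, 99.5% and 99.5% in Blood 21, Blood 22, Blood + MSC 23 and Blood + MSC 24. The MI + MSC shares were all above the MI shares, but the interval of MI + MSC 17 (97.1 to 99.5) overlapped those of MI 19 (95.3 to 98.5) and MI 20 (97.4 to 98.8), and that of MI + MSC 18 (98.5 to 99.5) overlapped that of MI 20. Per kb of exon, Arg1 exceeded Nos2 12.2-fold in MI 13 and 50.6- to 286-fold in the 8 other libraries that held a Nos2 read. The intervals cover counting error alone.

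**Figure D3:**
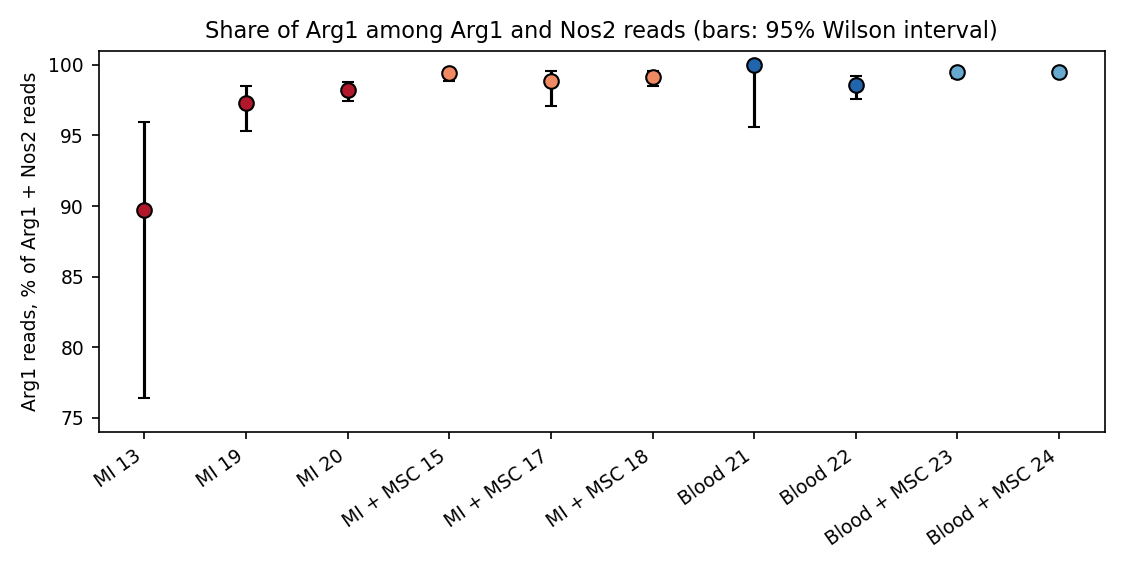
Arg1 reads as a percentage of Arg1 and Nos2 reads together in each of the 10 libraries, with 95% Wilson intervals as bars; the axis starts at 74%. MI 13 lay at 89.7% on 39 reads, and the other libraries between 97.3% and 100%.

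The other genes of arginine metabolism, 21 in the list and 19 of them tested, were compared in the same fit, and 0 were called for MSC in heart or blood. In the heart the lowest unadjusted p-values by limma were those of Pts, an enzyme of tetrahydrobiopterin synthesis (log2 fold change 0.71, adjusted p = 0.604), and Nos3, the endothelial nitric oxide synthase (-1.003, adjusted p = 0.639). Between heart and blood without MSC, 4 were called higher and 5 lower, against 21.2% and 13.5% of all genes tested. Nos3 was higher in the heart by a log2 fold change of 4.74, Spr, another tetrahydrobiopterin enzyme, by 3.50 and Srm, the spermidine synthase, by 2.62, while Gchfr, the feedback regulator of GTP cyclohydrolase, stood at -3.56 (adjusted p = 0.000221, 0.00188, 0.0208 and 0.0446). With MSC 2 were called higher and 0 lower, namely Nos3 (3.53, adjusted p = 0.00277) and Gch1, the GTP cyclohydrolase that supplies the cofactor of Nos2 (1.31, adjusted p = 0.0292), against 8.23% and 5.85% of all genes. Endothelial markers moved in the same direction as Nos3, with 6 of 9 tested called higher in the heart in both comparisons and sums of 456 to 2054 in the heart against 74.5 to 1639 in blood. Their part in the Nos3 difference was not tested.

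Mrc1 (chr2:14234151-14336926, plus strand) was not called in any comparison, and its groups overlapped throughout. MI 13, 19 and 20 held 193, 557 and 695 normalized counts, and MI + MSC 15, 17 and 18 held 574, 326 and 812. Blood 21 and 22 had 495 and 617, and Blood + MSC 23 and 24 had 533 and 468. The groups overlapped in each of the 4 comparisons, and the lowest library was MI 13, where 193 normalized counts stand for 23 reads. The log2 fold change with MSC was 0.34 in heart (SE 0.47, 95% interval -0.70 to 1.37, adjusted p = 0.815) and -0.15 in blood (SE 0.58, 95% interval -1.41 to 1.12, adjusted p = 0.973). Without MI 13 the value in heart was -0.22. Heart and blood differed by -0.39 without and 0.10 with MSC (SE 0.53 each, adjusted p = 0.592 and 0.923), and library size scaling turned the first to 0.13 and TMM scaling the second to -0.52. With MSC in blood the sign turned as well, to 0.15 and 0.52 under these scalings. The microRNA gene Mir511 lies in Mrc1 on the same strand and held 23 reads over all libraries, against 9971 for Mrc1.

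Chil3 (chr3:106054870-106074880, minus strand) had the widest range of the genes with reads in every library (8.49-fold, against 2.28- to 4.20-fold). MI 13, 19 and 20 held 294, 779.6 and 527 normalized counts, and MI + MSC 15, 17 and 18 held 205, 519 and 152. Blood 21 and 22 had 91.85 and 654, and Blood + MSC 23 and 24 had 509.8 and 188. All groups overlapped in the 4 comparisons, and the 2 Blood libraries lay at the lowest and the second highest value of the series. The log2 fold change with MSC was -0.96 in heart (SE 0.70, 95% interval -2.50 to 0.58, adjusted p = 0.689) and 0.33 in blood (SE 0.86, 95% interval -1.56 to 2.22, adjusted p = 0.956). MI over Blood was 1.001 (SE 0.79, adjusted p = 0.341), but this rested on Blood 21, where 13 reads were found: without Blood 21 the value was -0.40, and without Blood 22 it was 2.40 (adjusted p = 0.0344). MI + MSC over Blood + MSC was -0.29 (SE 0.79, adjusted p = 0.834).

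Chil3 has a close relative, Chil4 (Ym2), which lies near it on chromosome 3. The first transcripts of both genes, each 1539 bases long, were 94.4% identical over 1538 aligned bases, and 18.5% of the 50-base windows of Chil3 occurred in Chil4, so reads of the pair can be shared or lost in counting. Chil4 itself held 39 reads in all libraries, against 6703 for Chil3, so few reads of the pair were assigned to it. Their promoters are printed to show how alike the pair is up to and past the start. Capitals mark the TATA-type letters TATAAA, and the windows hold 250 bases before and 50 after the RefSeq start on GRCm38.p6, minus strand, chr3:106167515-106167814 for Chil3 and chr3:106219430-106219729 for Chil4:
Chil3: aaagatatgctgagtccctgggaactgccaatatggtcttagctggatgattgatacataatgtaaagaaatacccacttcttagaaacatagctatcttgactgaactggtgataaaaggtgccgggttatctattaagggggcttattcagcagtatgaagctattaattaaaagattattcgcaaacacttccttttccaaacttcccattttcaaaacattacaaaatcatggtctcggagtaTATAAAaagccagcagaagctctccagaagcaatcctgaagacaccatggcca
Chil4: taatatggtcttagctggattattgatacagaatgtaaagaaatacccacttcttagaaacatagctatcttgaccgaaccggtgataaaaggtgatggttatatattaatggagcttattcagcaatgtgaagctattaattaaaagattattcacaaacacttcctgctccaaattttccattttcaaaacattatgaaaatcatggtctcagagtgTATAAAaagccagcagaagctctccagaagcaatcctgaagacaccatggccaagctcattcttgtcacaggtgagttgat
The windows were 92.6% identical over 271 aligned bases. Both held the STAT-type letters TTCNNNGAA once (TTCTTAGAA, at -172 in Chil3 and -200 in Chil4) and the STAT6-type letters, TTC and GAA with 4 bases between them, nowhere on either strand. TATAAA stood at -3 and -31.

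Retnla (chr16:48662895-48664824, plus strand) was a low gene with higher values in blood than in the heart. MI 13, 19 and 20 held 2, 2 and 12 reads (16.8, 1.92 and 6.18 normalized counts), and MI + MSC 15, 17 and 18 held 0, 0 and 2 (0, 0 and 1.36). Blood 21 and 22 had 3 and 77 reads (21.2 and 50.03 normalized counts), and Blood + MSC 23 and 24 had 95 and 221 (24.95 and 37.2). The heart values lay below the blood values, as held for 14% of all genes tested. However, MI 13 and Blood 21, with 2 and 3 reads, cannot be ordered at this depth, and the blood groups overlapped. With MSC, heart was lower than blood by a log2 fold change of -3.77 (SE 0.74, adjusted p = 0.00757), and Retnla was called. Since MI + MSC held 2 reads in all, the ratio is also given from pooled reads: Blood + MSC over MI + MSC was 54.9. Its 95% counting interval of 15.1 to 456 covers counting error alone and not the spread between libraries. Leaving out Blood + MSC 23 or 24 gave -4.04 (adjusted p = 0.0857) and -3.50 (adjusted p = 0.0980), so this call needed both libraries. Without MSC, MI against Blood was -2.04 (SE 0.74, adjusted p = 0.0514) and missed the threshold. It was called at -2.62 without MI 13 (adjusted p = 0.0162), where 16.8 normalized counts stand for 2 reads, and with edgeR, DESeq2 and voom on the reads (adjusted p = 0.00363, 0.0101 and 0.00642). Of the other limma settings, pseudocount 5 (-1.67, adjusted p = 0.0372) and TMM scaling (-2.24, adjusted p = 0.0316) called it as well. Pseudocount 1 (adjusted p = 0.0707), no filter (adjusted p = 0.0645), library size scaling (-1.59, adjusted p = 0.119) and only the groups compared (adjusted p = 0.128) did not call it. The same held without MI 19 (-1.49, adjusted p = 0.145), and without Blood 22 the log2 fold change was -1.46.

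Between the heart groups, Retnla had lower values with MSC. All MI values exceeded all MI + MSC values, at 16 against 2 reads, as held for 9.6% of all genes tested. The 0 of MI + MSC 17 allows up to 6.89 normalized counts, above MI 19 (1.92) and MI 20 (6.18). These libraries therefore cannot be ordered. The pooled ratio of MI over MI + MSC was 8.74 with a counting interval of 2.06 to 78.4. The fitted log2 fold change was -1.83 (SE 0.66, 95% interval -3.28 to -0.38, unadjusted p = 0.0178, adjusted p = 0.580), which was not called. In blood the value was -0.10 (SE 0.81, adjusted p = 0.987), turning to 0.18 with library size and 0.53 with TMM scaling, and the difference between the effects in heart and blood was -1.73 (SE 1.05, adjusted p = 0.632).

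Retnla sits in a cluster with Retnlg (RELM-gamma), a neutrophil gene, and Retnlb. The first transcripts of Retnla and Retnlg were 84.2% identical over 596 aligned bases and shared 0 windows of 50 bases, so reads of that length can be told apart. Retnlg was also lower in the heart, with 14.2 to 296 normalized counts in the heart libraries, 2042 and 5772 in Blood and 765 and 522 after MSC (log2 fold change -4.81 and -3.57, adjusted p = 0.00544 and 0.0401). Retnlb held 30 reads in all. The promoters of the pair that was lower in the heart are printed because both hold the STAT6-type letters, which stand in capitals with TATAAA where present. They lie on the plus strand of GRCm38.p6 at chr16:48842359-48842658 (Retnla) and chr16:48872358-48872657 (Retnlg):
Retnla: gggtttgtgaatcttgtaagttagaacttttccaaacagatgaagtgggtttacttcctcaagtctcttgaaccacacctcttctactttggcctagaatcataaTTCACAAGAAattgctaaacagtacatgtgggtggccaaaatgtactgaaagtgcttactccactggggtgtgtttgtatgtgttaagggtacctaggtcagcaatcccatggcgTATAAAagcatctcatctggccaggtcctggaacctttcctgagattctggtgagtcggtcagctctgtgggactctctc
Retnlg: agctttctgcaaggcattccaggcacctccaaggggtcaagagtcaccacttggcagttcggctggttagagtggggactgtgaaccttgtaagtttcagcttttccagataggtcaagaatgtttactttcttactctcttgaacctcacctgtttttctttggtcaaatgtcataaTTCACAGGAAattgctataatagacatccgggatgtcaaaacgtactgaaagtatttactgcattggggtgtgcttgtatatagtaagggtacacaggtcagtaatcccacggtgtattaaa
The windows were 77.4% identical over 226 aligned bases. Retnla held TTCACAAGAA at -145 and Retnlg TTCACAGGAA at -72, and neither held TTCNNNGAA. Of 32851 RefSeq promoter windows of 300 bases, 6.95% hold the STAT6-type letters, 8.30% TTCNNNGAA, 4.79% an NF-kB-type motif and 13.6% TATAAA, on either strand. Promoter entries matched 4 of the 7 genes, and of these Mrc1 and Tgfb1 held none of the 4 motifs in the window. Arg1, Il10 and Nos2 had no entry.

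Il10 (chr1:130947581-130952711, plus strand) had reads in all 6 heart libraries and few or none in blood. MI 13, 19 and 20 held 5, 12 and 47 reads (42.0, 11.5 and 24.2 normalized counts), and MI + MSC 15, 17 and 18 held 66, 11 and 67 (44.6, 25.3 and 45.4). Blood 21 and 22 had 0 and 1 read (0 and 0.650 normalized counts), and the 2 deepest libraries, Blood + MSC 23 and 24, had 5 and 7 (1.31 and 1.18). The heart values lay above the blood values, as held for 19.1% of all genes tested. However, the 0 of Blood 21 allows up to 21.2 normalized counts and so cannot be set below MI 19, whereas the other 3 blood libraries held at most 1.31. Il10 was called higher in the heart both without MSC (log2 fold change 3.44, SE 0.61, adjusted p = 0.00214) and with MSC (3.59, SE 0.61, adjusted p = 0.00363). From pooled reads the ratio was 34.7 without MSC (counting interval 6.00 to 1390.6, since Blood held 1 read) and 34.5 with MSC (19.2 to 68.4). Leaving out any single library kept both calls, with log2 fold changes of 3.03 to 3.88 and 3.46 to 3.86, whereas voom with quality weights did not call the comparison without MSC (3.18, adjusted p = 0.110). With MSC, Il10 in the heart differed by 0.65 (SE 0.54, 95% interval -0.54 to 1.84, adjusted p = 0.717), and the groups overlapped. In blood the value was 0.50 (SE 0.67, adjusted p = 0.901), where the groups did not overlap but held 1 and 12 reads, with a pooled ratio of 2.07 (counting interval 0.306 to 88.4). Of all genes tested, 36.4% did not overlap between the blood groups.

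Tgfb1 (chr7:25386390-25404506, plus strand) spanned a 2.28-fold range over the 10 libraries. MI 13, 19 and 20 held 202, 217 and 247 normalized counts, and MI + MSC 15, 17 and 18 held 237, 138 and 277. Blood 21 and 22 had 169.6 and 121, and Blood + MSC 23 and 24 had 121 and 124. The heart groups did not overlap with the blood group of the same treatment, but MI + MSC 17 lay below Blood 21. Of all genes tested, 55.2% did not overlap between heart and blood without MSC and 63.5% with MSC. The log2 fold change was 0.62 without MSC (SE 0.33, 95% interval -0.10 to 1.33, adjusted p = 0.160) and 0.76 with MSC (SE 0.33, 95% interval 0.04 to 1.47, adjusted p = 0.140), and neither was called. TMM scaling gave 0.39 and 0.15, library size scaling 1.13 (adjusted p = 0.0215) and 0.85. With MSC, Tgfb1 differed by -0.09 in heart (SE 0.29, 95% interval -0.72 to 0.55) and -0.23 in blood (SE 0.36, 95% interval -1.01 to 0.56), with adjusted p = 0.928 and 0.917, and the sign in each of these turned with TMM scaling, to 0.19 and 0.44, and that in blood also with library size scaling, to 0.069.

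Taken by comparison, 0 of the 6 tested genes were called for MSC in heart, 0 in blood and 0 for the difference between both effects, and the same held for 0% of all 11549 genes by limma. By unadjusted p under 0.05, 925, 848 and 838 genes passed, and Arg1 and Retnla were 2 of the 925. On the reads, edgeR called 0, 0 and 0 genes (968, 856 and 815 by unadjusted p) and DESeq2 76, 179 and 18 (0.779%, 1.55% and 0.84% of the 9756, 11548 and 2144 genes to which it gave an adjusted p). None of these were among the 6, but DESeq2 gave no adjusted p to Retnla in heart, nor to Retnla and Il10 for the difference, so these could not be called. Of the 6, Arg1 (higher) and Retnla (lower) had heart groups that did not overlap, which held for 7.05% and 9.6% of all genes tested and 16.7% in either direction. In blood Il10 alone did not overlap, against 36.4% of all genes.

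Between heart and blood without MSC, 1 of 6 (Il10) was called higher and 0 lower, where 34.7% of all genes were called, 21.2% higher and 13.5% lower. With MSC, 1 of 6 (Il10) was called higher and 1 (Retnla) lower, where 14.1% of all genes were called, 8.23% higher and 5.85% lower. The count behind this share, 1627 genes, depended on single libraries: it was 272 without Blood + MSC 23, 513 without Blood + MSC 24, 717 without MI + MSC 18 and 960 without MI + MSC 15, and 2513 without MI 13, 2704 without Blood 21 and 2716 without Blood 22. On the reads, edgeR called 2 of 6 in each comparison (Il10 and Retnla), where it called 35.5% and 32% of all genes. DESeq2 called the same 2 without MSC and Tgfb1 besides with MSC, where it called 34.4% and 29%. Without MSC, Il10 and Tgfb1 were higher and Retnla lower with no overlap, as were 31.6% and 23.6% of all genes (55.2% in all), and the same 3 did so with MSC, as did 33.8% and 29.7% (63.5%). Over the 6 heart against the 4 blood libraries, Il10 (higher) and Retnla (lower) did not overlap, against 19.1% and 14% of all genes tested and 33.1% in either direction. With 6 genes tested, these counts are read beside those shares and not as a property of the group.

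**Figure D4:**
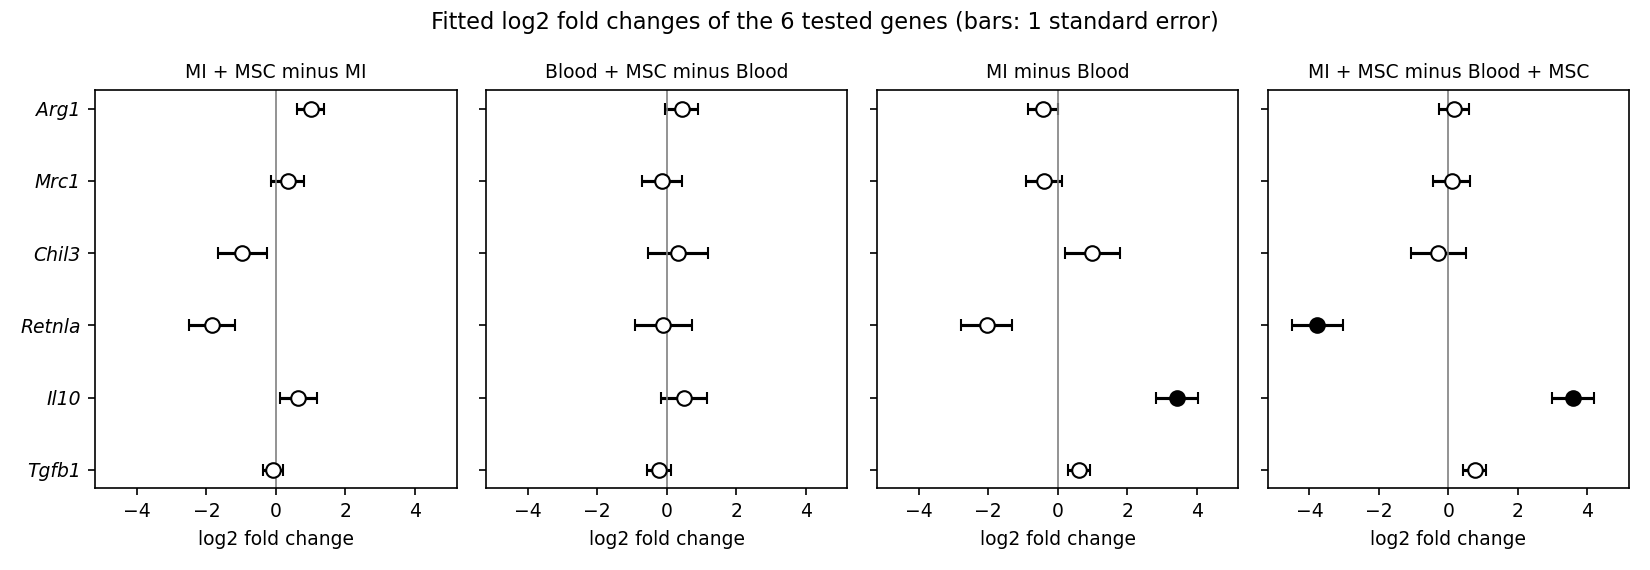
Fitted log2 fold changes of the 6 tested genes in 4 comparisons, with bars of 1 standard error; filled points were called (adjusted p under 0.05, log2 fold change of 0.5 or more in size). Il10 was called in both heart against blood panels (3.44 and 3.59), Retnla with MSC (-3.77), and no gene in the MSC panels.

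Levels between genes can be compared only per length. In normalized counts per kb of exon, Chil3 and Arg1 were the highest of the 7 (means over the 10 libraries of 224 and 211, ranks 215 and 227 of the 11549 genes tested), followed by Mrc1 at 67.3, Tgfb1 at 36.4, Retnla at 25.8, Il10 at 14.96 and Nos2 at 2.13. Within Blood the order was Chil3 213, Arg1 178, Mrc1 71.0, Retnla 57.6, Tgfb1 28.6, Nos2 0.878 and Il10 0.248 per kb. In MI it was Chil3 305, Arg1 143, Mrc1 61.5, Tgfb1 43.6, Il10 19.8, Retnla 13.4 and Nos2 4.25, and in MI + MSC Arg1 269, Chil3 167, Mrc1 72.9, Tgfb1 42.7, Il10 29.3, Nos2 1.66 and Retnla 0.731. Arg1 and Chil3 overlapped in their library values per kb in each of the 4 groups, so their order is not set, while Retnla and Il10 changed places between heart and blood.

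**Figure D5:**
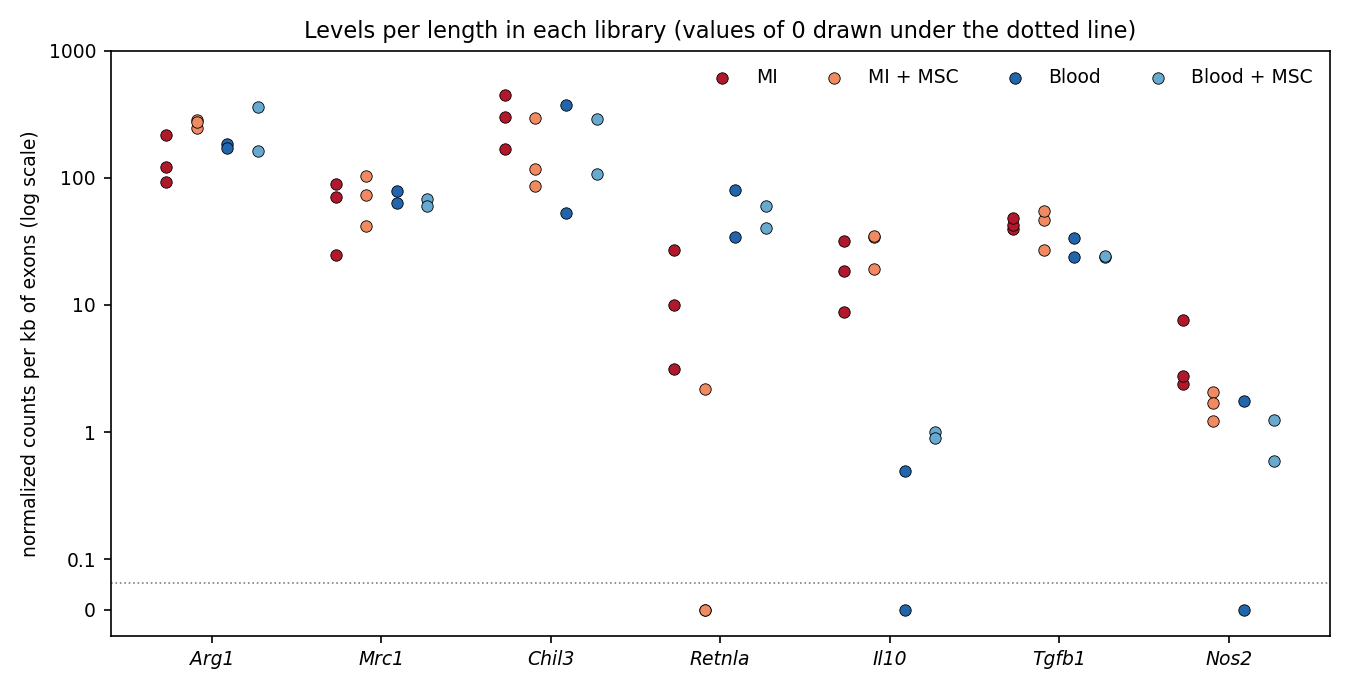
Normalized counts per kb of exon (log scale) of the 7 genes in each library, coloured by group, with values of 0 drawn under the dotted line. Arg1 and Chil3 were highest (means of 211 and 224 per kb), Nos2 lowest (2.13), and the values of Il10 and Retnla did not overlap between heart and blood, of which those in MI 13 and Blood 21 rest on 0 to 5 reads.

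The order of the group means, from high to low, was MI + MSC, Blood + MSC, Blood and MI for Arg1, and MI + MSC, Blood, Blood + MSC and MI for Mrc1. For Chil3 it was MI, Blood, Blood + MSC and MI + MSC, and neighbouring groups overlapped for Arg1, Mrc1 and Chil3. For Il10 the order was MI + MSC, MI, Blood + MSC and Blood, and MI did not overlap with Blood + MSC, nor Blood + MSC with Blood. The 2 blood groups held 12 and 1 Il10 reads, and the 0 of Blood 21 allows up to 21.2 normalized counts. The order of the blood groups is therefore not set. For Retnla it was Blood, Blood + MSC, MI and MI + MSC, with no overlap below Blood + MSC, although the groups at the low end held 16 and 2 reads. The 0 of MI + MSC 17 allows up to 6.89 normalized counts, so the order of the heart groups is not set. For Tgfb1 it was MI, MI + MSC, Blood and Blood + MSC, with overlap between all neighbours, and for Nos2 MI, MI + MSC, Blood + MSC and Blood, where only MI and MI + MSC did not overlap. Of all genes tested, 16.7% did not overlap between MI and MI + MSC, and 36.4% between Blood + MSC and Blood. For MI and Blood + MSC this share was not taken.

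The 6 tested genes did not vary as a unit over the 10 libraries. Pearson correlations of their log2 values, which share library, depth and scaling, ran from -0.78 (Retnla with Il10) to 0.75 (Il10 with Tgfb1), with 0.49 for Arg1 and Mrc1 and -0.40 for Arg1 and Chil3. Spearman correlations for these pairs were -0.78, 0.68, 0.22 and -0.48. The protein-coding genes closest to Arg1 were Phf7, Cd38 and Rbbp8 (r = 0.90, 0.83 and 0.80), and those closest to Mrc1 were Sar1a, Cers5 and Tigd2 (0.97, 0.94 and 0.94). C2cd2l, Fkbp5 and Crybg3 were closest to Chil3 (0.88, 0.88 and 0.87), Fyb1, Adamts10 and Asap1 to Retnla (0.97, 0.96 and 0.96), Ndufc2, Stra6l and Rufy3 to Il10 (0.98, 0.98 and 0.97), and Dnm1l, Lrp6 and Cbx5 to Tgfb1 (0.96, 0.96 and 0.95). For Arg1 the values fell to 0.82, 0.68 and 0.72 without MI 13. These are the highest among the protein-coding genes tested, over 10 libraries, and are given as a description.

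As macrophage genes were present in all groups, each gene was also set against them. Il10 was 0.0679% to 0.697% of the summed monocyte and macrophage markers in the heart libraries and 0% to 0.0109% in blood. Retnla was 0% to 0.279% in the heart and 0.0903% to 0.323% in blood, where the overlap came from MI 13 and its 2 reads. For Arg1 the MI libraries gave 2.27% to 4.88% and MI + MSC 4.13% to 6.04%, while Blood gave 2.50% and 3.56% and Blood + MSC 4.26% and 8.46%, so that on this scale the MI and MI + MSC libraries overlapped. MI 13 had both the lowest Arg1 level and the lowest summed macrophage markers (6026). Per Csf1r, Arg1 was 0.693 to 1.07 in MI and 1.23 to 1.74 in MI + MSC, which did not overlap. The part of the cell mixture in the Arg1 difference was not tested beyond these ratios.

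The wider gene groups were taken from lists of pathway genes, chosen with earlier results of these data known. Their counts beside the shares of all genes are a description. Of 22 alternative activation partners, 17 were tested, and 0 were called for MSC in heart or blood. In the heart their median log2 fold change was 0.16 against -0.01 over all genes, and the lowest unadjusted p-values by limma were those of Il1rn, the interleukin-1 receptor antagonist (1.35, adjusted p = 0.606), and Cd36, a scavenger receptor (-0.74, adjusted p = 0.618). Between heart and blood without MSC, 5 were called higher and 3 lower, against 21.2% and 13.5% of all genes (median -0.03 against 0.15), and with MSC 4 and 2, against 8.23% and 5.85% (median 0.13 against 0.09). Socs2, a cytokine signalling suppressor (2.86 and 2.47), and Pparg, a nuclear receptor of alternative activation (2.26 and 2.60), were higher in the heart in both comparisons, as was the transglutaminase Tgm2 (2.35 and 2.32, adjusted p = 0.00184 and 0.00416). Ccl24, a chemokine for eosinophils, was lower in both (-2.05 and -3.08, adjusted p = 0.00994 and 0.00285). Folr2, a folate receptor, was lower without MSC (-3.14, adjusted p = 0.0145), and Cd163, the haemoglobin scavenger receptor, with MSC (-2.64, adjusted p = 0.0189). The list's median turned to 0.88 under library size scaling without MSC and to -0.49 under TMM scaling with MSC.

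Among the IL-4 and IL-13 signalling genes (12 in the list, 9 tested), 0 were called for MSC, 0 higher and 3 lower in the heart without MSC (21.2% and 13.5% of all genes), and 2 higher and 2 lower with MSC (8.23% and 5.85%). Stat6, the transcription factor that IL-4 activates, was lower in the heart in both comparisons (-1.59 and -1.55, adjusted p = 0.00492 and 0.0118), as was the kinase Jak1 (-1.53 and -1.29, adjusted p = 0.00801 and 0.0331). Il13ra1, a receptor chain for both cytokines, was lower without MSC (-2.14, adjusted p = 0.0105). Socs1, a feedback inhibitor (1.78, adjusted p = 0.0453), and Irs2, an adaptor of the IL-4 receptor (1.31, adjusted p = 0.0262), were higher in the heart with MSC. In the MSC comparison in the heart these 2 had the lowest unadjusted limma p-values of the list, at 1.28 (adjusted p = 0.587) and 0.68 (adjusted p = 0.618).

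Of the 9 IL-10 signalling genes, all tested, 0 were called for MSC, although in the heart 8 of 9 had positive values (median 0.30 against -0.01 over all genes). The lowest limma p-values there were those of Il10rb, a receptor chain (1.47, adjusted p = 0.590), and Socs3, the feedback inhibitor that IL-10 induces (1.14, adjusted p = 0.602). Between heart and blood 0 were called higher and 1 lower without MSC (21.2% and 13.5% of all genes), and 1 and 1 with MSC (8.23% and 5.85%). Sbno2, a corepressor downstream of IL-10, was lower in the heart without and with MSC (-1.27 and -2.41, adjusted p = 0.0254 and 0.00259), and Il10ra, the receptor chain for the cytokine, was higher with MSC (1.05, adjusted p = 0.0485). With TMM scaling 0 were called without MSC and 1 lower with MSC, and with library size scaling 2 were higher and 0 lower without MSC.

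The TGF-beta signalling genes (23 in the list, 21 tested) had calls in 1 direction, with 10 higher and 0 lower in the heart without MSC (21.2% and 13.5% of all genes) and 7 and 0 with MSC (8.23% and 5.85%, median 1.49 against 0.15 and 1.16 against 0.09 over all genes). Ltbp4 and Ltbp2, which hold latent TGF-beta in the matrix, were higher by 6.06 and 4.38 without MSC and 3.63 and 2.97 with MSC. Lrrc32, which displays latent TGF-beta on cells (2.64 and 3.20), and the transcriptional corepressor Tgif1 (2.76 and 3.43) were higher as well, with adjusted p of at most 0.00384 for all of these. Tgif1 and Ltbp4 also had the lowest unadjusted limma p-values of the list for MSC in the heart (1.48 and -1.58, adjusted p = 0.429 and 0.517), and 0 were called there or in blood. TMM scaling left 7 and 6 calls higher and 0 lower between heart and blood. Markers of other heart cells were higher in the same comparisons: heart muscle 8 of 8 in both (median log2 fold change 8.68 and 7.42), endothelial 6 of 9 in both (4.58 and 3.42) and fibroblast 4 and 3 of 7 (1.26 and 0.68), with 0 lower. Summed fibroblast markers were 971 to 1672 in the heart and 499.6 to 1003 in blood. The part of these cells in the TGF-beta values was not tested.

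The classical partners of Nos2 (22 in the list, 16 tested) were called higher in the heart 7 times and lower 0 times in each comparison, against 21.2% and 13.5% of all genes without MSC and 8.23% and 5.85% with MSC (median 1.18 and 1.82 against 0.15 and 0.09). Il1a (3.97 and 5.17), Il23a (3.39 and 4.92), Cxcl10 (3.04 and 3.97) and Tnf (2.40 and 4.40), all cytokines or chemokines of acute inflammation, led both, with adjusted p of at most 0.0165. In the MSC comparison in heart 14 of 16 had positive values (median 1.05 against -0.01) and 0 were called by limma, with Il1a at 2.92 (adjusted p = 0.340) and Icam1, an adhesion molecule, at 1.72 (adjusted p = 0.517). Nos2 itself, which is not counted in the list, had lower values with MSC in the heart, on 23 against 39 reads. It was not called there in the limma fit without the filter (-1.01, adjusted p = 0.747). TMM scaling left 4 and 6 of the calls between heart and blood, and 0 lower. Gch1 is counted both here and with the arginine genes, and Arg2 with those and with the alternative activation partners.

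Of the 15 neutrophil markers tested, 13 were called lower in the heart without MSC and 3 with MSC, against 13.5% and 5.85% of all genes, and 0 higher. Without MSC these included Retnlg, Ngp (-4.80, adjusted p = 0.0285), Ly6g (-4.02, adjusted p = 0.000356) and Mmp8 (-3.70, adjusted p = 0.00251), and with MSC Retnlg, Lcn2 (-2.80, adjusted p = 0.0327) and Ly6g (-2.37, adjusted p = 0.0133). Among monocyte and macrophage markers 4 of 16 tested were higher and 1 lower without MSC, and 5 and 1 with MSC, against 21.2% and 13.5%, then 8.23% and 5.85%, of all genes. Cx3cr1, the fractalkine receptor (4.76 and 2.88), and Ms4a7 (2.29 and 4.32) were higher in the heart, and Lyve1, a marker of resident macrophages (-2.47 and -3.70), was lower. Platelet markers (6 tested) were lower 6 times without MSC and 1 time with MSC, against 13.5% and 5.85% of all genes (sums of 1077 and 25337 in the 2 Blood libraries and 454 to 1750 elsewhere). Without MSC, 1 of 3 eosinophil markers tested was called lower and 1 of 6 dendritic cell markers higher, against 13.5% and 21.2% of all genes. With MSC 0 of these were called, and of the 4 T and B cell markers tested 0 were called in either comparison. None of these lists had a gene called for MSC by limma, as held for all 11549 genes tested. With MSC in blood, platelet markers were lower in 6 of 6 (median log2 fold change -4.08) and neutrophil markers in 14 of 15 (-1.55). Of these, 6 and 4 had an unadjusted limma p under 0.05. Dendritic cell markers were higher there in 6 of 6 and eosinophil markers in 3 of 3 (median 0.91 and 1.38), against 0.11 over all genes. The part of these lists in the differences of Il10 and Retnla was not tested.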

How the data were processed

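The deposited values were signal per gene: the authors trimmed stranded, rRNA-depleted paired-end reads (Trimmomatic), aligned them to GRCm39 (STAR), removed duplicates (Picard), counted genes (featureCounts), left out mitochondrial reads and divided by DESeq2 size factors. Both deposited tables held the same 281850 values, and reads were recovered from the steps of each library (whole within 0.02). Values were tested as log2(value + 2) with limma 3.58.1 in R 4.3.3 (trended variance, 1 mean per group over all 10 libraries, Benjamini-Hochberg adjustment over 11549 genes with a mean of at least 10). Alternatives were pseudocounts, filters, library size and TMM scaling, edgeR 4.0.16, DESeq2 1.42.0 and voom on the reads, only the groups compared, and each library left out. Nos2 was tested by exact permutation. The fits were also run on simulated data, on which no statement here rests. The 7 genes and all lists were chosen with earlier results of these data known. Named from each list were up to 4 called genes with the largest change, otherwise the 2 with the lowest p, and 3 protein-coding genes of highest r per tested gene. Gene positions are from GENCODE vM39 and promoters from RefSeq (GRCm38.p6). Of the gene identifiers, 279 of 28185 were not found in GENCODE.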

Additional observations from a re-analysis of the deposited data

How the results depend on the processing

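Of 208 counts of called genes among the 7, 192 stayed at 0 or within 1.5 times the main count. Most of these main counts were 0, so this share says little about the calls that were made. Of 614 alternative log2 fold changes 553 kept direction and side of the threshold. No gene of the 7 was called for MSC, in heart, in blood or for the difference between both, under any alternative. Without MSC, the count called higher in the heart (main 1) was 0 with a mean of at least 20, where Il10 and Retnla are no longer tested, 0 with voom, and 3 with library size scaling (Il10, Tgfb1 and Nos2, which passed that filter), and leaving out single libraries gave 1 to 2 (2 without Blood 22, by Chil3). The count called lower (main 0) was 1 with pseudocount 5, TMM scaling, edgeR, DESeq2, voom and, chosen after the data were seen, without MI 13 and Blood 21 together, each time by Retnla (-1.67, -2.24, -3.01, -2.76, -3.26 and -3.20), and 0 to 1 with single libraries left out. With MSC, the count called higher (main 1) was 0 with a mean of at least 20 and 2 with DESeq2 (Tgfb1 at 0.87, adjusted p = 0.0390), and the count called lower (main 1) was 0 with a mean of at least 20 and 0 to 1 with single libraries left out (0 without Blood + MSC 23 or 24). The Nos2 difference (main 1.36) passed 0.05 with both pseudocounts and library size scaling, missed it with TMM scaling (0.95, exact permutation p = 0.114) and without MI 13 and Blood 21 (0.62), and ranged from 0.90 to 1.67 with single libraries left out, missing it in 7 of 10 cases, where fewer libraries also raise the smallest possible p.

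The sign turned as follows, none of them in a result called in the report. With TMM scaling, the MSC values became 0.19 for Tgfb1 in heart and 0.52, 0.53 and 0.44 for Mrc1, Retnla and Tgfb1 in blood, heart against blood with MSC became -0.46 for Arg1 and -0.52 for Mrc1, and the difference of the MSC values became -0.25 for Tgfb1. With library size scaling, blood became 0.15, 0.18 and 0.069 for Mrc1, Retnla and Tgfb1, heart against blood without MSC 0.11 for Arg1 and 0.13 for Mrc1, and the difference -0.29 for Tgfb1. TMM scaling moved the median of all genes to 0.27 and 0.73 for MSC in heart and blood and to -0.11 and -0.54 for heart against blood without and with MSC, and library size scaling to -0.15, 0.38, 0.68 and 0.20. On the reads, Chil3 in blood became -0.13 with edgeR and -0.14 with DESeq2, Il10 in blood -0.54 with voom, Arg1 with MSC -0.042 with edgeR, Mrc1 with MSC -0.10 with voom, and the Il10 difference -0.13 with edgeR and also -0.13 with pseudocount 1. Without MI 13 and Blood 21, Mrc1 became -0.22 (MSC in heart) and 0.01 (without MSC), Chil3 -1.07 (MSC in blood) and -0.03 (without MSC), and Tgfb1 0.01 (MSC in blood) and -0.16 (difference). Leaving out single libraries, the ranges that crossed 0 were -0.22 to 0.70 (Mrc1) and -0.29 to 0.21 (Tgfb1) for MSC in heart. In blood they were -0.14 to 1.005 (Arg1), -0.30 to 0.014 (Mrc1), -1.07 to 1.73 (Chil3), -0.68 to 0.49 (Retnla) and -0.46 to 0.012 (Tgfb1). Without MSC they were -0.75 to 0.17 (Mrc1) and -0.40 to 2.40 (Chil3), and with MSC -0.41 to 0.73 (Arg1), -0.21 to 0.45 (Mrc1) and -1.01 to 0.42 (Chil3). For the difference they were -0.0049 to 1.14 (Arg1), -0.074 to 0.84 (Mrc1), -2.70 to 0.11 (Chil3), -0.29 to 0.56 (Il10, 0.77 without MI 13 and Blood 21) and -0.10 to 0.43 (Tgfb1). The cause was not tested.

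Counts over all genes moved by over 1.5 times, or away from a main count of 0, in 44 of 208 cases. The split of higher against lower calls without MSC (2452 and 1556) was 4014 and 819 with library size scaling, and with MSC (951 and 676) it was 490 and 823 with TMM scaling. With MSC, edgeR called 1892 and 1801, DESeq2 2057 and 1296, voom 2529 and 2355, and the fit of only the groups compared 2176 and 1834. Without MSC, voom called 936 higher, a mean of at least 20 left 1606, TMM scaling 1388 and 845, and the fit of only the groups compared 1091 and 609. For MSC in heart voom called 39 and 222 and DESeq2 21 and 55. For MSC in blood DESeq2 called 4 and 175, and the fit without Blood 22 called 1107 and 397, which leaves 1 library in that group and takes its spread from the others. No paired analysis was possible because the labels give the groups no shared replicate numbers. Depth limits Retnla, Il10 and Nos2, which held 414, 221 and 117 reads over all libraries.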
